A study of Mus musculus with 8 samples.

Results

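The genes described here are 10 genes of macrophages: Cd68, Csf1r, Lyz2, Ctss, Mrc1, Cx3cr1, Trem2, Tyrobp, Aif1 and Mpeg1. They were chosen by name, and all 10 were found among the 25913 genes of the deposited count table. RNA came from dissected olfactory epithelium of C57BL/6J mice, the age being 40 weeks in all 8 libraries, and the study asked how RNA levels differ when olfactory sensory neurons lose Igf1r, which encodes the receptor of the growth factor IGF1. The design text calls the knockout homozygous and tissue-specific, and the genotype names hold OMP, the olfactory marker protein of mature sensory neurons, so macrophages were not the cells targeted. The 4 libraries titled IGF1R_flfl (replicates 1, 2, 13 and 3) carry the genotype entry OMPIGF1 (KO), and the 4 titled OMP_IGF1R (replicates 11, 12, 17 and 18) carry OMPflfl (Ctrl), so titles and genotype entries contradict each other. Groups are named by title throughout, and every fold change is OMP_IGF1R over IGF1R_flfl. The labels do not name an animal for any library. The spread that a p-value is set against is therefore that among these samples, and it may be technical. The library numbers in the titles fall in separate ranges for the groups, so group and any handling tied to those numbers cannot be told apart.

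Macrophages are phagocytes that live in the lamina propria under the olfactory epithelium and enter the epithelium itself, where they clear dying sensory neurons. Their survival depends on signalling through CSF1R, and they digest engulfed material in lysosomes. TREM2 and CX3CR1 sense lipids and a neuronal chemokine, and TYROBP carries the TREM2 signal into the cell.

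None of the 10 macrophage genes was called different between the groups. At an adjusted p under 0.05 in edgeR's quasi-likelihood test, 0 of 10 were called, while 8.20% of the 17381 genes tested were called (492 higher, 2.83%, and 933 lower, 5.37%, in OMP_IGF1R). With raw library totals in place of TMM scaling that split was 775 higher and 542 lower, and 0 members were called (1 at an unadjusted p under 0.05). All 10 passed the filter on low counts. At an unadjusted p under 0.05 there was 1 member, Cd68, against 23.5% of all genes. DESeq2 called 0 members (12.3% of all genes) and limma voom 0 (10.6% of all genes). The groups overlapped in CPM for all 10 members, while they did not overlap for 16.9% of the genes tested. All 10 fold changes were nonetheless above 0, as were 47.5% of those of all genes, with a median log2 fold change of 0.18 among the members and -0.012 over all genes. That common sign rested on the library IGF1R_flfl 3, which was the lowest of the 8 libraries for 9 members: without it 6 of 10 fold changes were above 0 (47.7% of all genes), the median was 0.032, and 0 members were called (5.05% of all genes).

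Total counts ran from 18802471 to 27793375 per library, of which the 10 genes took 7889 to 13811. Genes of mature olfactory sensory neurons summed to between 15556 and 21636 CPM (counts scaled to library size) in IGF1R_flfl and between 8882 and 10765 CPM in OMP_IGF1R, and sustentacular cell genes to between 18116 and 21333 CPM over all libraries, so the markers of olfactory epithelium were present. Igf1r stood at 55.5 to 72.9 CPM in IGF1R_flfl and 34.5 to 49.6 CPM in OMP_IGF1R. Omp stood at 4470 to 6734 CPM and at 1708 to 2185 CPM. Both Igf1r and Omp were lower in the libraries whose genotype entry names the control. IGF1R_flfl 2 was high in genes of the olfactory bulb and of oligodendrocytes (2744 CPM, against 796 to 924 CPM in the other IGF1R_flfl libraries), and OMP_IGF1R 17 in skeletal muscle genes (530 CPM, against 6.22 to 9.95 CPM in the rest of its group).

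Lyz2 encodes lysozyme M, a bacteria-degrading enzyme of macrophages and other myeloid cells, and it gave most of the reads of the group. A neighbouring gene, Lyz1, encodes the related lysozyme P of intestinal Paneth cells. The opening of both coding sequences is shown because reads of near-identical genes can be assigned to either. It is given 5′ to 3′ from coding base 1 to 150 (GENCODE M21, GRCm38), with capitals marking the bases that differ between the pair.
Lyz2: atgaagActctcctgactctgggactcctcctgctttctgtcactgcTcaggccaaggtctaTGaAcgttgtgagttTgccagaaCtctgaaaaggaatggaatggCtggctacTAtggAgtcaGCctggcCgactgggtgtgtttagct
Lyz1: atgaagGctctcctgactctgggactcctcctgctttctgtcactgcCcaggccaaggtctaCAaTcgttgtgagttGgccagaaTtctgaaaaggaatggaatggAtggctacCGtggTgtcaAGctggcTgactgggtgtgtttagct
Of the 447 coding bases, 22 differed, which is an identity of 95.1%. Of the differing bases, 14 lie in the stretch shown. The longest identical run was 118 bases, and 24 of the 1217 windows of 100 bases along the Lyz2 transcript (1.97%) also occurred in Lyz1. Lyz1 itself stood at 0.753 to 2.07 CPM, against 179 to 343 CPM for Lyz2, and how the authors' counting treated reads that fit both is not given in the sources used here.

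Csf1r was the receptor gene with the smallest difference. Csf1r (ENSMUSG00000024621, GRCm38 chromosome 18, 61105572 to 61132149), the receptor of the growth factors CSF1 and IL-34, stood at 55.8, 52.3, 51.1 and 45.2 CPM in libraries IGF1R_flfl 1, 2, 13 and 3, against 51.2, 52.8, 51.9 and 52.7 CPM in libraries OMP_IGF1R 11, 12, 17 and 18. The OMP_IGF1R libraries lay inside the range of the IGF1R_flfl libraries. The log2 fold change was 0.028 (SE 0.0626, 95% interval -0.11 to 0.17, edgeR adjusted p = 0.83), the narrowest interval among the members. Exons of Hmgxb3 on the opposite strand cover the 3′ end of Csf1r, and 774 of the 4602 windows of 100 bases in the Csf1r transcript (16.8%) also occurred in Hmgxb3 transcripts. Whether the counting used strand is not given in the sources used here, so part of the Csf1r count may belong to Hmgxb3, which stood at 71.7 to 105 CPM over the libraries (edgeR log2 fold change -0.22, adjusted p = 0.22).

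Cx3cr1 (ENSMUSG00000052336, chromosome 9, 119901616 to 120068283), the fractalkine receptor of resident macrophages and microglia, stood at 14.1, 16.3, 16.4 and 10.6 CPM in libraries IGF1R_flfl 1, 2, 13 and 3, against 17.2, 14.7, 15.7 and 13.3 CPM in libraries OMP_IGF1R 11, 12, 17 and 18. OMP_IGF1R 11 was highest and IGF1R_flfl 3 lowest, and the other 6 libraries were mixed between them. Cx3cr1 differed by 0.088 on the log2 scale (SE 0.143, edgeR adjusted p = 0.76). The interval the count table gives to Cx3cr1 spans 5 other genes, but none of the 100-base windows of its longest coding transcript occurred in another gene's transcripts. Such windows miss shorter overlaps, and exons of the antisense gene Gm33858 overlap 78 bases of the Cx3cr1 exons (1.73%).

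Mrc1 (ENSMUSG00000026712, chromosome 2, 14229414 to 14332057), the mannose receptor CD206 of tissue-resident and alternatively activated macrophages, stood at 15.9, 15.4, 14.9 and 9.64 CPM in libraries IGF1R_flfl 1, 2, 13 and 3, against 15.5, 16.9, 16.6 and 16.9 CPM in libraries OMP_IGF1R 11, 12, 17 and 18. A single low library, IGF1R_flfl 3, widened the difference of the group means, and the other 7 libraries lay within 14.9 to 16.9 CPM. Among those, OMP_IGF1R 12, 17 and 18 were above every IGF1R_flfl library. Mrc1 differed by 0.24 on the log2 scale (SE 0.145, edgeR adjusted p = 0.36), and 0.11 without IGF1R_flfl 3 (adjusted p = 0.44).

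Trem2 (ENSMUSG00000023992, chromosome 17, 48346401 to 48354147), a receptor for lipids and cell debris, stood at 3.87, 6.36, 4.22 and 3.57 CPM in libraries IGF1R_flfl 1, 2, 13 and 3, against 5.92, 5.35, 6.15 and 5.03 CPM in libraries OMP_IGF1R 11, 12, 17 and 18. IGF1R_flfl 2 was the highest of all 8 libraries, while the other 3 of its group were below every OMP_IGF1R library. The log2 fold change was 0.31 (SE 0.188, edgeR adjusted p = 0.35). Without IGF1R_flfl 2 it was 0.54, and Trem2 was then called (edgeR adjusted p = 0.0383), the 1 member called in that fit, in which 8.45% of all genes were called. IGF1R_flfl 2 is the library in which the olfactory bulb and oligodendrocyte list was highest. Of the 10 genes of the microglia list 6 were highest there, while their sum (218 CPM) lay within the 164 to 226 CPM of the other libraries. The microglial receptor P2ry12 was also highest there (6.74 CPM, against 2.42 to 3.57 CPM in the other libraries), whereas the microglial gene Tmem119 (25.1 CPM) lay within the range of the others, 16.9 to 31.0 CPM. The part of these genes' source in the Trem2 value was not tested. Without both IGF1R_flfl 2 and OMP_IGF1R 17 the log2 fold change of Trem2 was 0.49, and it was not called (edgeR adjusted p = 0.0766).

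Tyrobp (ENSMUSG00000030579, chromosome 7, 30413788 to 30417577), the adaptor DAP12 that pairs with TREM2 and other myeloid receptors, stood at 11.8, 11.9, 10.5 and 7.26 CPM in libraries IGF1R_flfl 1, 2, 13 and 3, against 11.02, 11.98, 9.86 and 10.2 CPM in libraries OMP_IGF1R 11, 12, 17 and 18. Apart from IGF1R_flfl 3 the groups were interleaved. The log2 fold change was 0.054 (SE 0.156, edgeR adjusted p = 0.87), and its sign turned without IGF1R_flfl 3 (-0.077) or without OMP_IGF1R 12 (-0.0019).

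**Figure D1:**
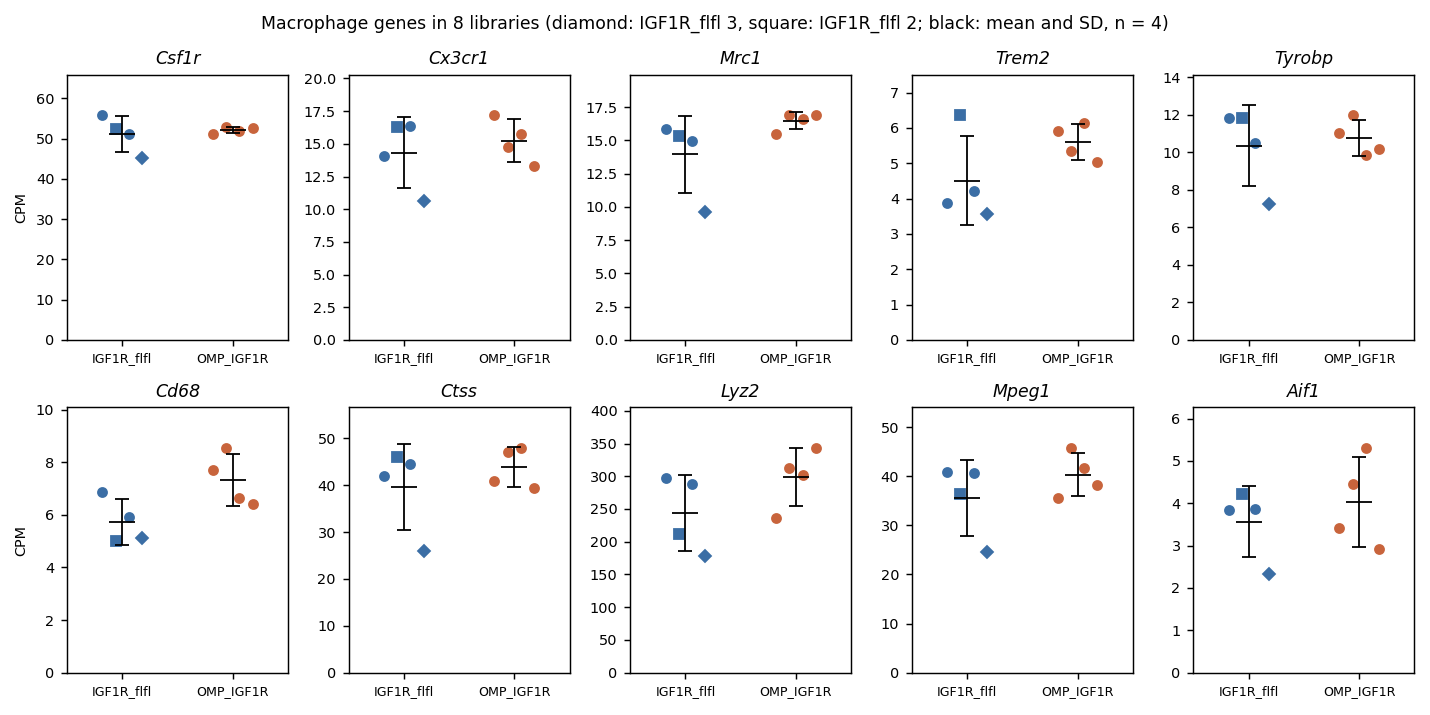
CPM (vertical axes, each starting at 0) of the 10 macrophage genes in the 4 IGF1R_flfl and 4 OMP_IGF1R libraries; points are libraries, the black cross-bars are means with SD (n = 4), diamonds mark IGF1R_flfl 3 and squares IGF1R_flfl 2. The groups overlap in every panel, and the diamond is the lowest point for 9 of the 10 genes.

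Among the lysosomal and effector genes, Cd68 came nearest to a call. Cd68 (ENSMUSG00000018774, chromosome 11, 69664213 to 69666153), a glycoprotein of macrophage lysosomes, stood at 6.88, 4.99, 5.90 and 5.12 CPM in libraries IGF1R_flfl 1, 2, 13 and 3, against 7.70, 8.55, 6.64 and 6.41 CPM in libraries OMP_IGF1R 11, 12, 17 and 18. The groups overlapped through IGF1R_flfl 1, which was above OMP_IGF1R 17 and 18. Group means of Cd68 were 5.72 ± 0.871 and 7.33 ± 0.993 CPM (SD, n = 4 in both groups), which is 0.36 on the log2 scale (SE 0.146, 95% interval 0.029 to 0.68, edgeR adjusted p = 0.18). Without IGF1R_flfl 3 the log2 fold change was 0.31 (adjusted p = 0.29). Cd68 was the sole member whose lowest library was IGF1R_flfl 2.

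Ctss (ENSMUSG00000038642, chromosome 3, 95526786 to 95556403), the lysosomal protease cathepsin S that trims the MHC class II invariant chain, stood at 42.0, 46.1, 44.6 and 26.0 CPM in libraries IGF1R_flfl 1, 2, 13 and 3, against 40.8, 47.1, 48.0 and 39.5 CPM in libraries OMP_IGF1R 11, 12, 17 and 18. Only IGF1R_flfl 3 lay outside 39.5 to 48.0 CPM. For Ctss the log2 fold change was 0.15 (SE 0.162, edgeR adjusted p = 0.64), and -0.0050 without IGF1R_flfl 3.

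Lyz2 (ENSMUSG00000069516, chromosome 10, 117277334 to 117282274) stood at 297, 211, 288 and 179 CPM in libraries IGF1R_flfl 1, 2, 13 and 3, against 237, 313, 302 and 343 CPM in libraries OMP_IGF1R 11, 12, 17 and 18. Both groups were spread widely, and IGF1R_flfl 2 and 3 were the lowest libraries. Group means of Lyz2 were 244 ± 58.1 and 299 ± 44.8 CPM (± SD over 4 libraries; log2 fold change 0.29, SE 0.172, edgeR adjusted p = 0.34), and the log2 fold change was 0.18 without IGF1R_flfl 3.

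Mpeg1 (ENSMUSG00000046805, chromosome 19, 12460779 to 12465284), the pore-forming protein perforin-2, stood at 40.9, 36.3, 40.7 and 24.5 CPM in libraries IGF1R_flfl 1, 2, 13 and 3, against 35.6, 45.8, 41.6 and 38.2 CPM in libraries OMP_IGF1R 11, 12, 17 and 18. IGF1R_flfl 3 was again below all other libraries, which were interleaved. The log2 fold change was 0.18 (SE 0.154, edgeR adjusted p = 0.53) and 0.043 without that library.

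Aif1 (ENSMUSG00000024397, chromosome 17, 35170991 to 35176068), the actin-binding protein IBA1 used to stain macrophages and microglia, was among the members with fewest reads, 59 to 120 per library. It stood at 3.84, 4.23, 3.86 and 2.34 CPM in libraries IGF1R_flfl 1, 2, 13 and 3, against 3.42, 4.45, 5.31 and 2.92 CPM in libraries OMP_IGF1R 11, 12, 17 and 18. The spread was wide in both groups and the interval the widest of the members, -0.36 to 0.71 around a log2 difference of 0.17 (SE 0.237, edgeR adjusted p = 0.71). That difference was 0.022 without IGF1R_flfl 3, 0.021 without OMP_IGF1R 17 and 0.30 without OMP_IGF1R 18.

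The 95% intervals limit how large a change these libraries leave room for. Expressed as folds, their bounds ran from 0.780 (Aif1) to 1.67 (Trem2) over the 10 genes, so a doubling lay outside the interval of every member, while a rise of Cd68, Lyz2, Trem2 or Aif1 to 1.60-fold lay inside it. Summed over the members, expression was 423 ± 82.8 CPM in IGF1R_flfl and 494 ± 47.2 CPM in OMP_IGF1R (SD, n = 4 each), with overlap between the groups, and Lyz2 made up 52.2% to 65.0% of it. Among the 10 genes, 0 had an adjusted p under 0.05 in the authors' deposited table (13.4% of the 15891 genes with an adjusted p there), and the lowest was that of Cd68, 0.15, with a log2 fold change of 0.30.

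**Figure D2:**
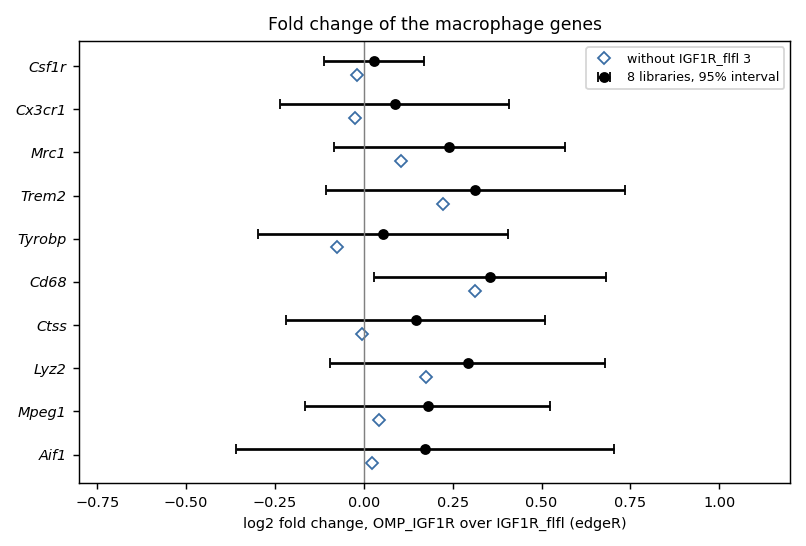
Log2 fold change of each macrophage gene, OMP_IGF1R over IGF1R_flfl (horizontal axis), with its 95% interval from edgeR (black) and the estimate without IGF1R_flfl 3 (open diamonds). All 10 black points lie above 0 while 6 of the 10 open diamonds do, and the interval of Cd68 alone starts above 0, at 0.029.

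The 10 genes differed widely in level. Divided by the length of the longest coding transcript in kilobases, the mean over the 8 libraries was 206 CPM per kb for Lyz2, 30.8 for Ctss and 17.7 for Tyrobp. It was 10.98 CPM per kb for Csf1r, 8.76 for Mpeg1, 5.31 for Cd68, 4.65 for Trem2, 4.34 for Aif1, 3.29 for Cx3cr1 and 2.83 for Mrc1. Lyz2 was above Ctss and Tyrobp above Csf1r in every library pairing, since those ranges did not meet. For each other pair of neighbours in this order the ranges over libraries overlapped. The gene models behind the deposited counts may differ from these, so this order depends on the annotation chosen.

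IGF1R_flfl 3 was low across the members and in the sums of most, but not all, lists of stromal and immune cells. Relative to each gene's mean over the 8 libraries, the median member stood at -0.57 on the log2 scale there and between -0.017 and 0.18 in the other 7 libraries, and all 10 members were below their mean. For comparison, IGF1R_flfl 3 was the lowest library for 22.7% of all genes tested. The endothelial list stood at 98.98 CPM in IGF1R_flfl 3 and at 132 to 155 CPM elsewhere, and the fibroblast list at 2078 CPM against 2582 to 3194 CPM. The ensheathing glia list (223 CPM) was not lowest there. The list of perivascular and alternatively activated macrophages shares Cbr2 with the sustentacular cell list, and the cells behind its sum were not tested. That sum (3333 CPM) was the highest of the IGF1R_flfl group, although 14 of the 21 genes were lowest in IGF1R_flfl 3. Genes of mature sensory neurons were highest in the same library, at 21636 CPM against 8882 to 18136 CPM. In bulk tissue, fewer macrophages and less of these RNAs per macrophage cannot be told apart, and the part of the stromal share in the macrophage values was not tested.

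**Figure D3:**
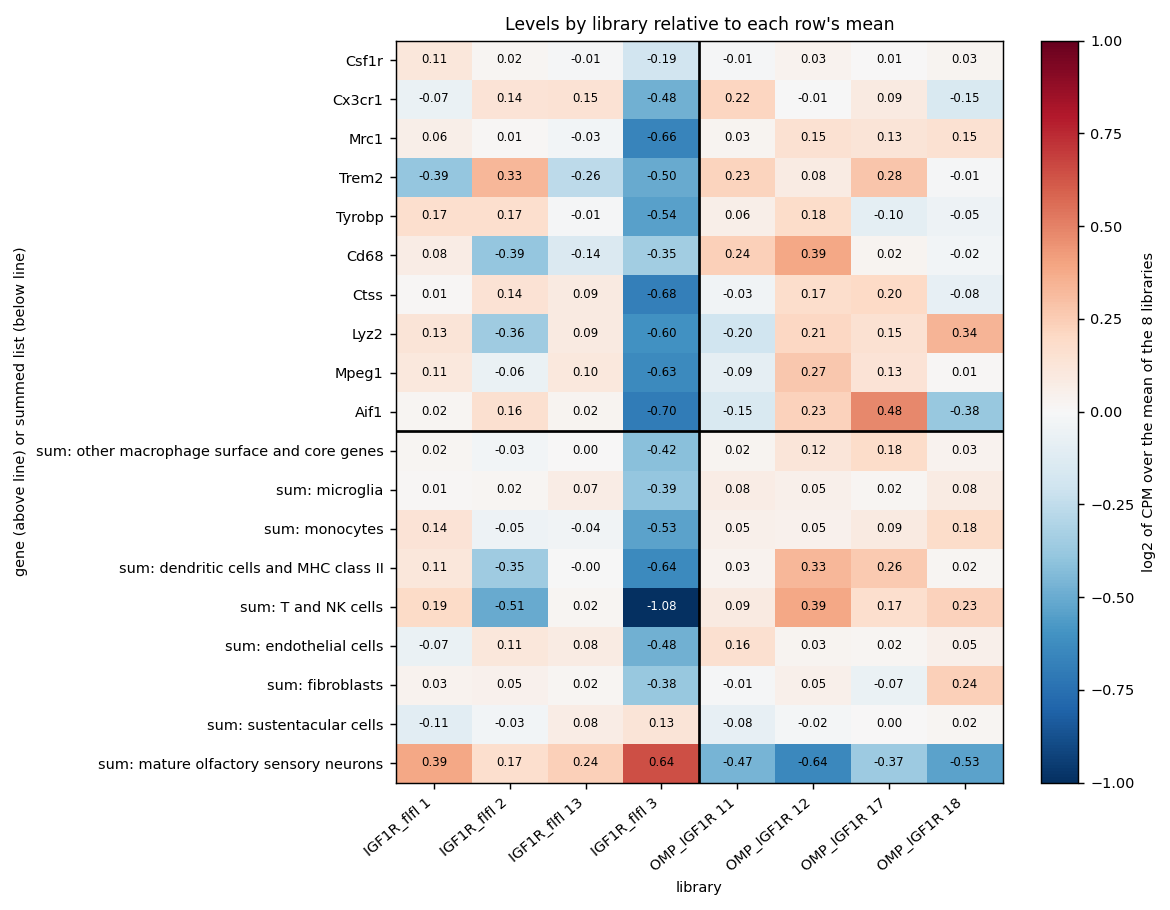
Log2 of the CPM in each library (columns) over the mean of the 8 libraries, for the 10 macrophage genes (rows above the line) and for summed marker lists (rows below it). In IGF1R_flfl 3 all 10 genes and the other immune, endothelial and fibroblast lists plotted are below their mean, and mature olfactory sensory neuron genes are above it.

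The members were correlated across the 8 libraries, and less so across the 7 without IGF1R_flfl 3. After subtracting group means, the 45 pairs of members had a median Pearson r of 0.64 over 8 libraries, from -0.31 (Cd68 with Trem2) to 0.94 (Csf1r with Mrc1). Without IGF1R_flfl 3, over 7 libraries, the median was 0.16, and 17 of the 45 pairs had a negative r. Ctss with Aif1 was then the closest pair (0.94), and Mrc1 and Cx3cr1 ran opposite to each other (-0.86). These values share libraries, depth and scaling and describe these samples only.

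**Figure D4:**
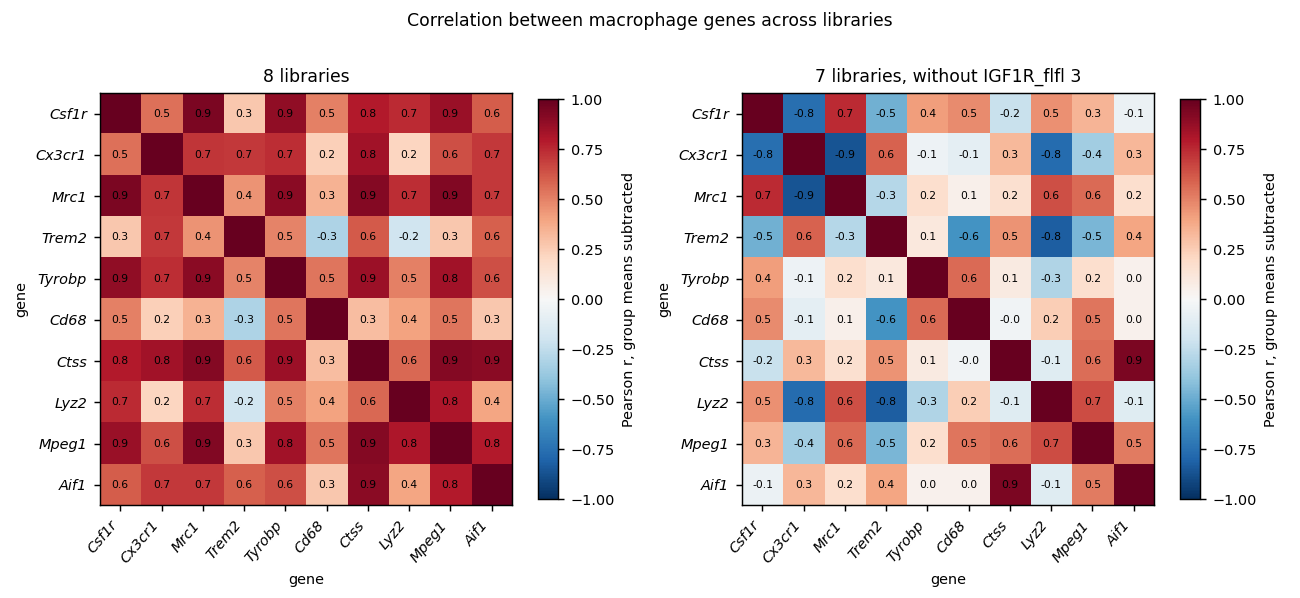
Pearson r between the macrophage genes across libraries on the log2 CPM scale with group means subtracted, over 8 libraries (left) and over 7 without IGF1R_flfl 3 (right). The median over the 45 pairs falls from 0.64 on the left to 0.16 on the right.

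Of 14860 genes ranked by likeness to the mean standardised level of the members over the 8 libraries, C1qc, a chain of complement C1q made by macrophages, came first (r = 0.99). The next 9 were Gbp7, Ptprc (the leukocyte surface phosphatase CD45), Evc, Thbd, St8sia4, 5430435G22Rik, Itgb2 (the leukocyte integrin chain CD18), Coro1a and Slc25a24, with r from 0.98 to 0.97. With group means subtracted, 4 of these 10 were again among the closest 10, and without IGF1R_flfl 3 it was 1 (5430435G22Rik, r = 0.93). C1qc had an r of 0.87 over the 7 remaining libraries. Its level was 15.3 CPM in IGF1R_flfl 3 and 21.6 to 24.5 CPM in the others.

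Further genes of the macrophage programme were counted from lists chosen for this tissue. Of 30 other surface and core genes, among them the C1q chains, Fc receptors and NADPH oxidase subunits, 1 rose and 0 fell (2.83% and 5.37% of all genes), with a median log2 fold change of 0.26. Of the 30 fold changes 28 were above 0, as were 47.5% of those of all genes. The summed list stood at 273 to 370 CPM in IGF1R_flfl and at 371 to 414 CPM in OMP_IGF1R, without overlap. Of the 30, 27 were lowest in IGF1R_flfl 3, and the median was 0.15 without that library. The gene that rose was Fcgr2b, the inhibitory IgG receptor. It stood at 6.63, 6.86, 7.04 and 5.71 CPM in libraries IGF1R_flfl 1, 2, 13 and 3, against 8.88, 10.1, 8.49 and 9.22 CPM in libraries OMP_IGF1R 11, 12, 17 and 18 (log2 0.48, SE 0.107, edgeR adjusted p = 0.0257). The groups did not overlap for Fcgr2b, as was so for 16.9% of the genes tested. Its call was lost without IGF1R_flfl 1 or OMP_IGF1R 11, 12 or 18 (edgeR adjusted p up to 0.0821), and without IGF1R_flfl 3 it was kept at 0.0498. Adgre1, which encodes the macrophage antigen F4/80, had a log2 fold change of 0.26 and was not called (edgeR adjusted p = 0.30).

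Of 18 genes for CSF1R ligands and macrophage transcription factors, 1 rose and 0 fell (2.83% and 5.37% of all genes), with a median log2 fold change of 0.23. Without IGF1R_flfl 3 the median was 0.13 and 0 were called. Csf1, a ligand of CSF1R, stood at 18.7 to 23.8 CPM over the libraries (log2 -0.0056, edgeR adjusted p = 0.98) and Il34, the other ligand, at 5.08 to 8.08 CPM (0.11, adjusted p = 0.73). Spi1, which encodes PU.1, the factor that specifies the myeloid lineage, stood at 3.45 to 6.23 CPM (0.13, adjusted p = 0.71). The gene that rose was Mitf, a factor of osteoclasts, mast cells and pigment cells, from 8.58 ± 0.740 to 12.2 ± 2.00 CPM (± SD over 4 libraries; log2 0.51, edgeR adjusted p = 0.0424). It kept its call only without IGF1R_flfl 2 or OMP_IGF1R 11 (adjusted p otherwise up to 0.108), and lost it with no filter on low counts (0.0541). Cx3cl1, the ligand of CX3CR1, stood at 61.2 to 82.1 CPM (-0.19, adjusted p = 0.14).

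In the list of TREM and TYROBP receptor signalling, which also holds other receptors and the ligand gene Apoe, 2 of 16 tested genes rose and 0 fell. Over all genes 2.83% rose and 5.37% fell. The median log2 fold change of the list was 0.20. Without IGF1R_flfl 3 the median was 0.10 and 0 were called. Vav1, an exchange factor for Rac, went from 6.14 ± 0.968 to 9.45 ± 1.11 CPM (± SD over 4 libraries; log2 0.62, edgeR adjusted p = 0.0273), and Inpp5d, the lipid phosphatase SHIP1, from 7.71 ± 1.62 to 11.8 ± 1.46 CPM (log2 0.61, adjusted p = 0.0452). Neither group pair overlapped, as was so for 16.9% of the genes tested. Vav1 lost its call without IGF1R_flfl 3 or OMP_IGF1R 11, 12 or 18 (adjusted p up to 0.0821) and Inpp5d without any library but IGF1R_flfl 1 (up to 0.132) and with no filter on low counts (0.0550). With no library left out, DESeq2 and voom both called Vav1 (adjusted p = 0.00112 and 0.0245) and Inpp5d (0.00431 and 0.0327). Apoe, a lipid carrier and TREM2 ligand that other cell types also make, stood at 810 to 1110 CPM (0.15, adjusted p = 0.37).

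Of 14 tested chemokine genes 1 rose and 0 fell (2.83% and 5.37% of all genes), with a median log2 fold change of 0.19, and 0.075 without IGF1R_flfl 3. It was Ccl8, a chemokine of monocytes, at 0.778 ± 0.338 and 2.02 ± 0.611 CPM (± SD over 4 libraries, log2 1.37, edgeR adjusted p = 0.0366). That call was lost without any library but IGF1R_flfl 1 (adjusted p up to 0.0954). In the list of perivascular and alternatively activated macrophages, 1 of 14 tested genes rose and 0 fell (2.83% and 5.37% of all genes), with a median of 0.15, and 0.048 without IGF1R_flfl 3. It was Chil3, a chitinase-like protein named Chi3l3 in the count table, whose reads may be shared with a paralog (log2 2.31, edgeR adjusted p = 0.0322). Leaving out IGF1R_flfl 1, 13 or 3, OMP_IGF1R 12 or OMP_IGF1R 18 ended the call (adjusted p up to 0.0852).

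Lysosomal genes are expressed in all cell types of the tissue. Of 22, 0 rose and 2 fell (2.83% and 5.37% of all genes), with a median log2 fold change of 0.020, and -0.033 without IGF1R_flfl 3. At an unadjusted p under 0.05 in edgeR there were 9, against 23.5% of all genes. The summed lysosomal list stood at 5321 to 5619 CPM in IGF1R_flfl and at 4894 to 5253 CPM in OMP_IGF1R, without overlap. Among the genes that fell was Ctsb, the protease cathepsin B, from 807 ± 8.55 to 695 ± 29.9 CPM (± SD over 4 libraries, edgeR adjusted p = 0.0498). Ctsb lost its call without any 1 library (adjusted p up to 0.167), and also with DESeq2 size factors (0.0596), upper-quartile factors (0.0854), raw library totals (0.136) or no filter on low counts (0.0821), all in edgeR. DESeq2 itself called Ctsb (adjusted p = 5.3e-05), as did voom (0.0159) and edgeR with a filter of at least 1 CPM in 4 libraries (0.0434). In the list of lipid-associated and phagocytic macrophages 0 of 14 tested genes were called by edgeR, 2 by DESeq2 and 0 by voom (8.20%, 12.3% and 10.6% of all genes). At an unadjusted p under 0.05 in edgeR there were 6, against 23.5% of all genes. The median log2 fold change was 0.26, and 0.22 without IGF1R_flfl 3. The summed list stood at 955 to 1124 CPM in IGF1R_flfl and at 1137 to 1294 CPM in OMP_IGF1R, without overlap. Its most abundant genes were Cd9, a tetraspanin, at 365 ± 26.1 and 421 ± 23.1 CPM, and Spp1, osteopontin, at 243 ± 43.8 and 312 ± 52.0 CPM (SD, n = 4 in both groups). Cd9 and Spp1 thus weigh heavily in the sum. Whether their RNA came from macrophages or from other cells of the tissue was not tested.

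Markers of related cells were counted in the same way. In edgeR 2.83% of all genes rose, 5.37% fell and 23.5% had an unadjusted p under 0.05, while DESeq2 called 12.3% and voom 10.6%. In the microglia list edgeR, DESeq2 and voom each called 0 of 9 tested genes, and 0 had an unadjusted p under 0.05 (median log2 0.061, and -0.13 without IGF1R_flfl 3), in the monocyte list 0 of 9 by these tools with 2 at an unadjusted p under 0.05 (0.16, and 0.049 without IGF1R_flfl 3), and in the osteoclast list 0 of 8 by these tools with 0 at an unadjusted p under 0.05 (0.22, and 0.092 without it). In the list of dendritic cell and MHC class II genes 0 of 13 were called by edgeR (5 at an unadjusted p under 0.05, 2 by DESeq2, 0 by voom), with a median of 0.34 (0.21 without IGF1R_flfl 3), and its most abundant gene Cd74, the invariant chain cut by cathepsin S, stood at 149 ± 33.6 and 204 ± 27.9 CPM (SD, n = 4 in both groups). Of 11 tested T and NK cell genes 0 were called by edgeR (1 at an unadjusted p under 0.05, 1 each by DESeq2 and voom; median 0.62, and 0.31 without IGF1R_flfl 3), on sums of 5.23 to 14.4 CPM. In the remaining immune lists Cd79b, a B cell receptor chain, rose (log2 0.90, 1 of 9), Lcn2 rose and Mpo fell among 9 neutrophil genes (1.19 and -2.10), and Kit, which progenitors also express, rose as the 1 tested mast cell gene (0.57), while the other 6 mast cell genes were below the filter. All 4 genes lost their edgeR call without OMP_IGF1R 11 or OMP_IGF1R 18 (adjusted p up to 0.110). Cd79b also lost it without IGF1R_flfl 13 or 3 or OMP_IGF1R 12 or 17, and Mpo without IGF1R_flfl 13 or OMP_IGF1R 12 or 17. Mpo was low in level and did not pass the stricter filter of at least 1 CPM in 4 libraries. Lcn2 also lost it without IGF1R_flfl 1, 13 or 3 or OMP_IGF1R 17 and with voom (adjusted p = 0.0807), and Kit without IGF1R_flfl 1 or 3 or OMP_IGF1R 12.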

How the data were processed

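RNA of 8 olfactory epithelium libraries was measured by stranded poly-A RNA-seq, per the labels' protocols. Per the submitters' processing notes, reads on GRCm38 went through TopHat2 2.0.14, Trim Galore 0.3.7 and SAMtools 1.2 (order not stated), with DESeq2 also named. The counting step and strand setting: not given in the sources used here. The deposited table holds raw read counts per gene, as whole numbers, and the authors' mean normalised signal, log2 fold change with its error, test score and p-value. No deposited value column lacked a sample. Text was trimmed from 23 gene identifiers.

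Counts were filtered with filterByExpr, scaled by TMM and tested with edgeR 4.0.16 (quasi-likelihood, Benjamini-Hochberg over 17381 genes, R 4.3.3); the SE is the absolute log2 fold change over the root of F. Alternatives were other scalings and filters, DESeq2 1.42.0, limma 3.58.1 voom and left-out libraries. The fits were tested on simulated data. Libraries of a group differed by more than sampling noise (mean chi-square per gene at least 11.4). The members and the 24 other lists (319 entries, all matched) were chosen with earlier results of these data known. All members were named; from other lists, up to 4 called genes or, where none was called, up to 2 with the highest CPM; ligands, copies and overlapping genes were named as context after their values were seen. Transcript lengths are those of the longest protein-coding transcript in GENCODE M21. The values of 1 called gene of the lysosomal list are not reported here.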

Additional observations from a re-analysis of the deposited data

Results flagged for a closer look

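In groups of 4 libraries, 70 sets of values were screened for a library far from the others of its group (a gap over 0.829 of the range), which chance gives in about 1 in 20 sets, and 9 were found. Mrc1 stood at 9.64 CPM in IGF1R_flfl 3 against 14.9 to 15.9 CPM in the other IGF1R_flfl libraries. In the same library the summed other macrophage genes stood at 273 CPM (others 358 to 370), the microglia list at 164 CPM (216 to 225) and the fibroblast list at 2078 CPM (2738 to 2790). In IGF1R_flfl 2 the ensheathing glia list stood at 914 CPM (213 to 302) and the olfactory bulb and oligodendrocyte list at 2744 CPM (796 to 924). The neutrophil list stood at 888 CPM in IGF1R_flfl 13 (108 to 218) and at 571 CPM in OMP_IGF1R 17 (234 to 279). The skeletal muscle list stood at 530 CPM in OMP_IGF1R 17 (6.22 to 9.95).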

How the results depend on the processing

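Of 160 member fold changes under 16 alternatives, 152 kept their direction and their side of the threshold, 1 passed it and 7 changed sign. Trem2 without IGF1R_flfl 2 passed it (log2 0.54, edgeR adjusted p = 0.0383). The sign changed without IGF1R_flfl 3 for Csf1r (-0.020), Ctss (-0.0050), Cx3cr1 (-0.026) and Tyrobp (-0.077), without OMP_IGF1R 12 for Tyrobp (-0.0019), and with voom for Cx3cr1 (-0.0046) and Aif1 (-0.0024); the cause was not tested. Over the left-out libraries these fold changes ran from -0.020 to 0.073 (Csf1r), -0.0050 to 0.24 (Ctss), -0.026 to 0.16 (Cx3cr1) and -0.077 to 0.14 (Tyrobp). Leaving out 1 library each gave 0 to 1 members called and 569 to 1477 genes called of all tested, against 1425, and DESeq2 called 2140. The log2 difference of the summed members ran from 0.11 to 0.32 over the left-out libraries. Of 384 list counts under alternatives, 297 were within 1.5 times. No paired analysis was possible because the groups share no replicate numbers. Aif1, Trem2 and Cd68 rest on 59 to 227 reads per library. Without both IGF1R_flfl 2 and OMP_IGF1R 17, edgeR no longer called Vav1 (adjusted p = 0.0538), Inpp5d (0.0839), Ccl8 (0.106), Ctsb (0.0797), Cd79b (0.0544) or Mpo (0.0924). With no library left out, DESeq2 and voom each called Fcgr2b, Mitf, Vav1, Inpp5d, Ccl8, Chil3, Ctsb, Cd79b, Mpo and Kit, and DESeq2 also called Lcn2.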
